A study of Homo sapiens with 4 samples.

Results

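The AP-2 family holds 5 transcription factor genes, TFAP2A, TFAP2B, TFAP2C, TFAP2D and TFAP2E. TFAP2A-AS1 is a long non-coding RNA gene on the strand opposite TFAP2A. All 6 symbols were found in the deposited table, 6 genes of 60048, and 5 of the 6 passed the filter on low values (TFAP2B did not). The genes were chosen by their auxin against control values in these same libraries, so their differences are given as description, with no test.

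The RNA came from HCT116, a colorectal carcinoma cell line, of the genotype RAD21-mAC. In these cells RAD21, a core subunit of the cohesin ring, carries a degron tag through which auxin triggers loss of the protein. The control group (DMSO, 2 libraries) and the auxin group (0.5 mM indole-3-acetic acid for 3 h, 2 libraries) share this genotype, so an effect of auxin itself and an effect of RAD21 loss cannot be told apart. Nascent RNA was labelled for 20 min with 0.5 mM 5-ethynyl uridine, a uridine analogue that allows newly made RNA to be captured, and the study concerns cohesin, polymerase pausing and elongation. The labels do not say whether replicates were separate cultures, so p-values measure the spread between these libraries, which may be technical.

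AP-2 proteins bind GC-rich DNA as dimers and act in neural crest, skin, kidney and placenta during development. TFAP2A and TFAP2C are the members most studied in epithelial cancers, and TFAP2E has been studied in colorectal cancer for methylation of its DNA. CITED proteins and the acetyltransferases EP300 and CREBBP act as coactivators of AP-2, and the KCTD proteins KCTD1 and KCTD15 repress it.

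TFAP2A (ENSG00000137203) lies on the minus strand of chromosome 6, from 10397872 to 10419638 (GRCh38). TFAP2A-AS1 (ENSG00000229950, plus strand, 10409340 to 10416446) lies wholly within that span, and so does a further antisense lncRNA gene, TFAP2A-AS2 (ENSG00000285278, plus strand, 10404502 to 10407928). RefSeq gives TFAP2A 2 start sites in its promoter table, an upstream start at 10419659 and an inner start at 10412391, 7268 bases apart. The inner start lies within TFAP2A-AS1, and the RefSeq start of TFAP2A-AS1, at 10412318, is only 73 bases from it. As annotated, the 2 genes overlap here on opposite strands. TFAP2A covers the start of TFAP2A-AS1, and TFAP2A-AS1 covers the inner start of TFAP2A but ends before the upstream start. The table begins TFAP2A-AS1 at 10409340, upstream of its RefSeq start, and its value is for that longer span.

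These windows are shown because TFAP2A and TFAP2A-AS1 start beside each other, and because TFAP2A-AS2 marks the stretch of TFAP2A that moved least. The value of TFAP2A contains that of TFAP2A-AS1, so that both moved together is not a separate observation. Each runs from 250 bases before the start to 50 bases from it, 5′ to 3′ on the gene's own strand (RefSeq, GRCh38.p14). Capitals mark matches to TATAAA, the TATA box, or to the AP-2 site GCCNNNGGC and its form with 4 bases between GCC and GGC, searched on both strands.
TFAP2A upstream start, chr6:10419610-10419909, minus strand: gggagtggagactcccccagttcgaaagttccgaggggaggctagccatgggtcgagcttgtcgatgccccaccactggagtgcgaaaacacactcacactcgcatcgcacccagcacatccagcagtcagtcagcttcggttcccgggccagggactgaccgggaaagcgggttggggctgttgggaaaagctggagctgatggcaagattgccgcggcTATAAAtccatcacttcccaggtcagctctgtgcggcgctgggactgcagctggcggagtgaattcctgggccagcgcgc
TFAP2A inner start, chr6:10412342-10412641, minus strand: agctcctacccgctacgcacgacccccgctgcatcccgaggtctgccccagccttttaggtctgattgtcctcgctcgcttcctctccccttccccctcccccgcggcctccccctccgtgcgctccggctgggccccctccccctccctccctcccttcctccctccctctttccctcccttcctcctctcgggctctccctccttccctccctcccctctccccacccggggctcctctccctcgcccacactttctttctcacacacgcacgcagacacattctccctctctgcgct
TFAP2A-AS1, chr6:10412068-10412367, plus strand: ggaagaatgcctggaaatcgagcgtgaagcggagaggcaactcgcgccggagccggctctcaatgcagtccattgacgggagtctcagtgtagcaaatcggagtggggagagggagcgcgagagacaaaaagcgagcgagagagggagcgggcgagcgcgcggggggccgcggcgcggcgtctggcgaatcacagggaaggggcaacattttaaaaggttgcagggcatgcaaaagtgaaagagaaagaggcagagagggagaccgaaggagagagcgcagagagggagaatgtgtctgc
TFAP2A-AS2, chr6:10404252-10404551, plus strand: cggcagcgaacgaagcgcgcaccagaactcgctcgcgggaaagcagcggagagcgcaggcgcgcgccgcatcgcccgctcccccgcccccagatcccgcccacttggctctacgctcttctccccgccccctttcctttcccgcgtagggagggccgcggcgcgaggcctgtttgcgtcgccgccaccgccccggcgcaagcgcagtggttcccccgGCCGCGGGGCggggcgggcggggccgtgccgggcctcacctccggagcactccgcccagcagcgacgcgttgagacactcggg

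The windows of the inner TFAP2A start and of TFAP2A-AS1 share 26 bases. The upstream TFAP2A window held TATAAA beginning 30 bases before the start, and the inner window and that of TFAP2A-AS1 held none. Of the 34943 RefSeq windows of this length, 11.6% hold it, on either strand and at any position. No marked match overlaps another, and a match is a description of the letters, not a bound site. GCCNNNGGC was in none of the 4 windows, against 23.2% of all windows. The form with 4 bases between was in that of TFAP2A-AS2, beginning 33 bases before its start, against 21.4% of all windows. GC content was 61.7% in the upstream window, 68.0% in the inner window and 60.3% in that of TFAP2A-AS1. The TFAP2A-AS2 window reached 76.0% with 47 CpG sites, against 18 CpG sites in each TFAP2A window and 26 in that of TFAP2A-AS1. TFAP2B and TFAP2D had windows low in GC (43.0% and 39.3%, with 5 and 3 CpG sites), and TFAP2E had 62.7% and 20 CpG sites.

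Promoter windows were matched for 5 of the 6 members, TFAP2C being the one without. TATAAA was also found in the window of TFAP2D, beginning 55 bases before the start. In the window of TFAP2B it was on the opposite strand, 202 bases before the start, and TFAP2E had none.

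The values are a scaled signal summed over the whole span of a gene, introns included, and they do not keep the strands apart. Among 4597 pairs in which a gene with a mean signal of at least 50 lay wholly inside a gene of the opposite strand, the inner gene was never above the outer gene in any library (0.1% tolerance), as in 3315 pairs on the same strand. Signal per kb of the inner and outer gene correlated across 3826 opposite-strand pairs with Spearman's rho 0.592 and across 2315 same-strand pairs with rho 0.674; these are descriptions across genes that share libraries and positions. The signal of TFAP2A therefore contains that of TFAP2A-AS1 and TFAP2A-AS2, and no part of it can be given to a strand.

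TFAP2A, which encodes AP-2 alpha, had scaled signals of 3500 and 3651 in the control libraries and 9393 and 10368 in the auxin libraries. The groups lay far apart, and each auxin library held more than any control library. The means were 3575 ± 107 and 9880 ± 690 (SD, n = 2 each), 2.76-fold higher with auxin, a log2 difference of 1.46 (SE 0.13) on the log2(signal + 1) scale. The 4 auxin and control pairings gave log2 differences from 1.36 to 1.57, while the replicates differed by 0.061 in control and 0.14 in auxin.

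TFAP2A-AS1 had scaled signals of 1575 and 1451 in control and 4812 and 5305 in auxin. Here too the groups stood apart, with means of 1513 ± 87.7 and 5058 ± 349 (SD, n = 2 each), 3.34-fold higher with auxin (log2 difference 1.74, SE 0.15). The pairings ranged from 1.61 to 1.87. As the span of TFAP2A-AS1 also covers the inner start of TFAP2A, this is the signal of that stretch on both strands.

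The span of TFAP2A was then divided into the stretch inside TFAP2A-AS1 (7.11 kb), the stretch inside TFAP2A-AS2 (3.43 kb) and the remaining 11.2 kb, by subtraction, which is approximate at the boundaries. Outside both antisense genes, the scaled signal was 985 and 1155 in control and 3080 and 3415 in auxin. The means were 1070 ± 120 and 3247 ± 237 (SD, n = 2 each), 3.04-fold higher with auxin (log2 difference 1.60). The stretch inside TFAP2A-AS1 was at 1.74, and the whole span, which contains every stretch, at 1.46. As the strands are not kept apart, which strand the signal of any stretch came from was not tested. Inside TFAP2A-AS2 the signal was 939 and 1045 in control and 1501 and 1648 in auxin, 1.59-fold higher (log2 difference 0.67, SE 0.17, limma adjusted p = 0.138). The pairings there, from 0.52 to 0.81, were all below those outside both antisense genes, from 1.41 to 1.79.

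The shares of the TFAP2A signal, which do not depend on how libraries are scaled, show the same shift. The stretch inside TFAP2A-AS2 held 26.8% and 28.6% of it in control and 16.0% and 15.9% in auxin. The stretch inside TFAP2A-AS1 held 45.0% and 39.7% in control and 51.2% in each auxin library. The remaining stretch held 28.1% and 31.6% in control and 32.8% and 32.9% in auxin. Per kb, TFAP2A-AS2 was the densest stretch in control (274 and 305, against 222 and 204 inside TFAP2A-AS1), and TFAP2A-AS1 was the densest in auxin (677 and 746, against 438 and 481). No group overlapped the other in any of these shares, but the shares add up to the whole and are not separate observations. In the remaining stretch the groups were close (31.6% in control replicate 2, 32.8% in auxin replicate 1). With 2 libraries a group such separation is common: 18.6% of all tested genes lay higher and 19.6% lower in this way.

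**Figure D1:**
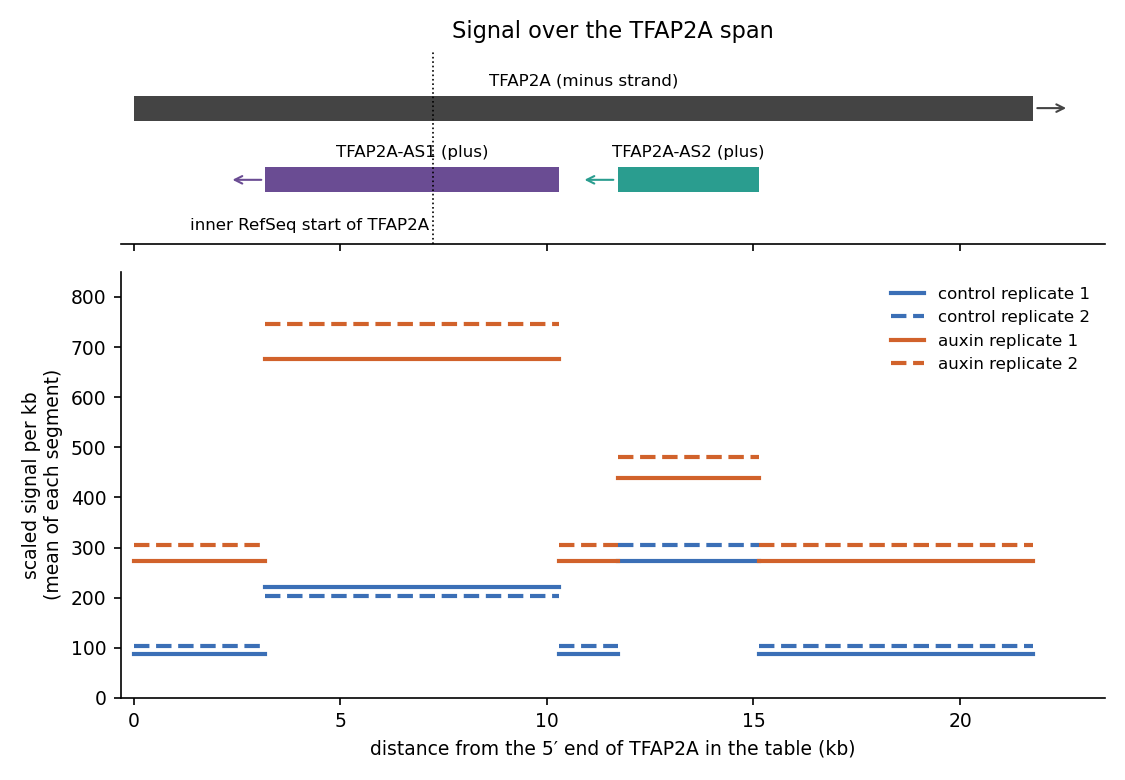
Scaled signal per kb along TFAP2A, against distance from its 5′ end in kb, with the gene spans drawn above; lines are the 4 libraries, and the 3 pieces outside the antisense genes carry 1 common mean. The auxin lines lie above the control lines in every stretch, by least inside TFAP2A-AS2 (438 and 481 against 274 and 305).

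TFAP2C, which encodes AP-2 gamma, is a factor of trophoblast and breast epithelium (ENSG00000087510, plus strand, chromosome 20, 56629306 to 56639283). Its scaled signal was 307 and 276 in control and 314 and 316 in auxin. Both auxin libraries were above both control libraries, but the groups were close. The log2 difference was 0.11 (SE 0.21), from 0.033 to 0.19 over the pairings, against 0.15 between the control replicates. Leaving out control replicate 1 gave 0.20, and leaving out control replicate 2 gave 0.036. No annotated gene overlaps TFAP2C in the table.

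TFAP2E, which encodes AP-2 epsilon (ENSG00000116819, plus strand, chromosome 1, 35573314 to 35595328), had scaled signals of 6769 and 5099 in control and 5063 and 3996 in auxin. Control replicate 2 and auxin replicate 1 were nearly equal, 0.011 apart on the log2 scale, and the other pairings ran from -0.76 to -0.35. Replicates of the same number differed by -0.42 and -0.35, though the numbers are not said to pair libraries. The means were 5934 ± 1180 and 4530 ± 754 (SD, n = 2 each), a log2 difference of -0.39 (SE 0.18). Within each group replicate 1 was the higher, by 0.41 in control and 0.34 in auxin, close to the size of the difference between groups. Leaving out control replicate 1 gave a log2 difference of -0.17. With control replicate 2 left out it was -0.59, and with auxin replicate 2 left out -0.22.

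The signal of TFAP2E also cannot be given to a strand. TFAP2E-AS1 (minus strand, 35569815 to 35577729) overlaps its 5′ part, with 1780 and 1404 in control and 1378 and 1042 in auxin and a log2 difference of -0.40 (SE 0.20, limma adjusted p = 0.548). PSMB2, a proteasome subunit gene on the minus strand, ends 4.21 kb from the 3′ end of TFAP2E and points towards it. Per kb, PSMB2 held 227 and 209 in control and 229 and 214 in auxin, with overlapping groups, while TFAP2E held 307 and 232 in control and 230 and 182 in auxin.

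TFAP2D and TFAP2B, which encode AP-2 delta and AP-2 beta, are neighbours on chromosome 6 (plus strand, 50713526 to 50773033 and 50818871 to 50847619). TFAP2D had 17.8 and 15.3 in control and 17.8 and 13.5 in auxin, with overlapping groups (log2 difference -0.086, SE 0.53). The sign turned when control replicate 1 (0.023) or auxin replicate 2 (0.10) was left out, and with control replicate 2 or auxin replicate 1 left out the value was -0.19 or -0.27. TFAP2B was listed at 0 in control replicate 2 and auxin replicate 1, and at 2.54 and 3.37 in control replicate 1 and auxin replicate 2. It was too low to be tested, and no fold is given.

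Compared per kb of span, the members fell into 3 tiers. TFAP2A-AS1 (mean 462 over the 4 libraries), TFAP2A (309) and TFAP2E (238) were high, denser than 93.7%, 88.3% and 83.2% of the protein-coding genes in the table. These are levels of spans on both strands. That of TFAP2A-AS1 is the level of a stretch of TFAP2A, and that of TFAP2E includes signal shared with TFAP2E-AS1. The means pool both groups, so those of TFAP2A and TFAP2A-AS1 are raised by the auxin libraries. TFAP2C (30.4) lay near the middle, above 43.8% of them. TFAP2D (0.271) and TFAP2B (0.0514) were near the floor, above 6.75% and 4.33%. The order at the top depended on the group. In control, TFAP2E (307 and 232) was above TFAP2A-AS1 (222 and 204) and TFAP2A (161 and 168), and in auxin it was below both (230 and 182, against 677 and 746 and 432 and 476). TFAP2E and TFAP2A-AS1 in control were closer to each other (232 and 222 at their nearest) than the TFAP2E replicates were.

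**Figure D2:**
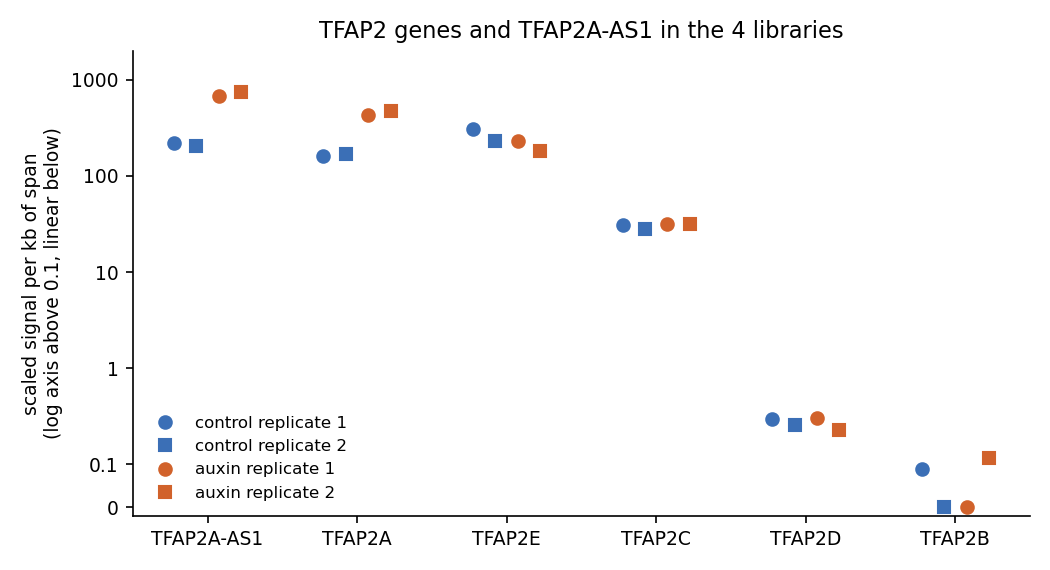
Scaled signal per kb of span for the 6 genes, on a log axis above 0.1 and a linear one below; circles are replicate 1 and squares replicate 2. The auxin points of TFAP2A (432 and 476) and TFAP2A-AS1 (677 and 746) lie well above their control points, and TFAP2B is listed at 0 in 2 libraries.

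Across the table, 39464 genes were tested with limma, and 289 had an adjusted p under 0.05 (called): 0.332% of the tested genes were called higher and 0.400% lower with auxin. Of the 5 tested members, 2 (TFAP2A and TFAP2A-AS1, which share signal) were among the genes called higher and 0 among those called lower. Both auxin libraries lay above both control libraries in 3 of the 5, against 18.6% of all tested genes, and below them in 1, against 19.6%. Since the members were chosen on this contrast, nothing is read from these counts. At an unadjusted p under 0.05 were 10.2% of all tested genes. The number called was 132 without control replicate 2, 681 without auxin replicate 1 and 538 without auxin replicate 2.

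Totals on the deposited scale ran from 61135244 to 93113007, and libraries were brought to a common scale, which removes any change in total nascent RNA. RAD21 itself, the gene of the depleted protein, had 5154 and 7190 in control and 5893 and 6264 in auxin (log2 difference -0.0029, limma adjusted p = 0.998), and as the degron acts on protein this does not check the labels. Epithelial markers were present (KRT19 2060, KRT18 2050, KRT8 407, CDH1 140 and EPCAM 124 per kb as means of the 4 libraries). The colon markers CDX1, LGR5 and KRT20 were low (0.638, 0.458 and 3.38 per kb) and CDX2 was at 207 per kb. None of the 10 colon epithelium markers was called with limma (3 at an unadjusted p under 0.05, CDH1 higher and KRT8 and KRT19 lower, against 10.2% of all tested genes). In 6 of the 10 both auxin libraries were below both control libraries, against 19.6% of all tested genes, and in 1 above, with a median log2 difference of -0.22. KRT8 and KRT18, both among the 6, overlap in part on opposite strands and so share some signal. Whether the markers' differences bear on the members' values was not tested. Of 7 markers of other cell types, COL1A1 (45.6 per kb) and MLANA (17.0) were the highest, PECAM1 was at 3.02, and ALB, CGA, PTPRC and COL1A2 were at 0.78, 0.645, 0.245 and 0.0775. The 5 tested markers of this list had positive log2 differences (median 0.20) and none was called with limma. COL1A1 had the only unadjusted p under 0.05, with 577 and 732 in control and 893 and 998 in auxin (0.54, limma adjusted p = 0.335). In bulk RNA, fewer cells of a type and less RNA per cell cannot be told apart.

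Within 500 kb, 20 tested genes did not overlap TFAP2A, and with limma none was called (3 at an unadjusted p under 0.05, against 10.2% of all tested genes). Both auxin libraries were above both control libraries in 5 of the 20 and below in 2, against 18.6% and 19.6% of all tested genes, so these counts are near the background. The nearest protein-coding gene, GCNT2, a glycosyltransferase gene whose span begins 102 kb upstream, had 200 and 217 in control and 224 and 194 in auxin, with overlapping groups (log2 difference 0.0014). On the other side no tested protein-coding gene lay within 500 kb.

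Between TFAP2A and GCNT2, 5 non-overlapping genes were tested, named here after their values were seen. The nearest, the lncRNA gene AL138885.2 at 3.5 kb, had 11.9 and 7.17 in control and 21.4 and 7.86 in auxin, with overlapping groups (log2 difference 0.46, SE 0.69, limma adjusted p = 0.934). The groups also overlapped in the pseudogene MRPL48P1 at 40.3 kb (0.23, adjusted p = 0.926). The lncRNA gene LINC00518, 9.62 kb from TFAP2A, had 76.3 and 117 in control and 183 and 201 in auxin (log2 difference 1.02, SE 0.28, limma adjusted p = 0.184). MIR5689HG, which overlaps LINC00518 and so shares signal with it, had 388 and 620 in control and 778 and 1085 in auxin (0.90, SE 0.26, adjusted p = 0.19). LINC02522, 54.9 kb away, had 33.9 and 32.7 in control and 44.6 and 62.9 in auxin (0.65, SE 0.37, adjusted p = 0.639). In these last 3 of the 5 every auxin library was above every control library, against 18.6% of all tested genes, and none of the 5 passed the threshold. Since LINC00518 and MIR5689HG share signal and the genes were named after their values were seen, nothing is read from this count.

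**Figure D3:**
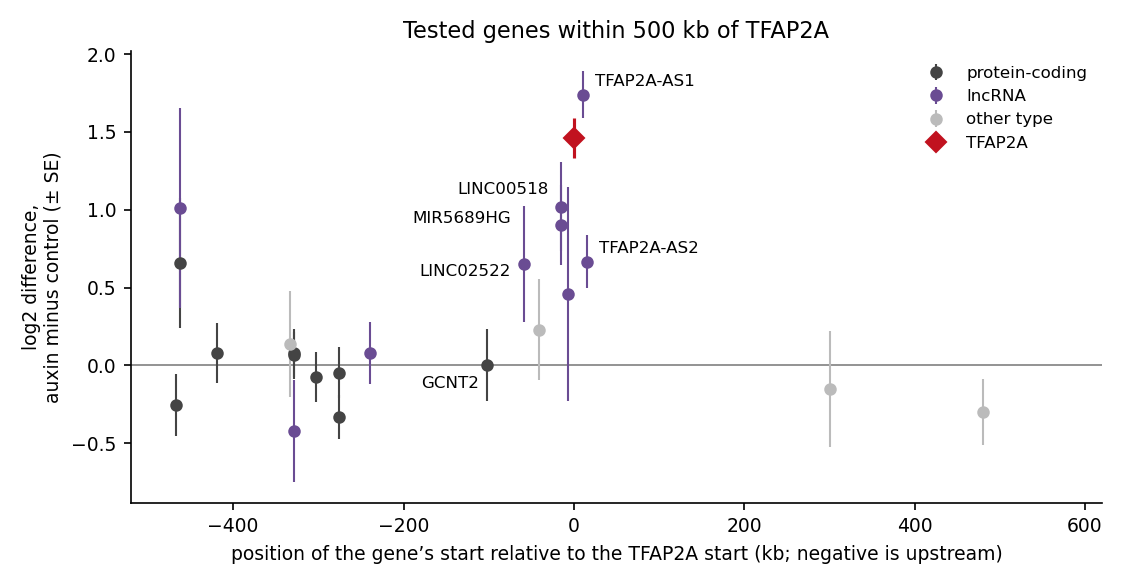
Log2 difference (auxin minus control, ± SE) of the tested genes within 500 kb of TFAP2A, against the position of each gene's start relative to that of TFAP2A in kb. TFAP2A (1.46) and TFAP2A-AS1 (1.74) are highest. LINC00518 (1.02) and MIR5689HG (0.90) lie just upstream, AL357497.1, 462 kb away, is at 1.01 (SE 0.64), and GCNT2 lies at 0.0014.

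Around TFAP2C, 12 other genes were tested within 500 kb and none was called with limma, nor was any at an unadjusted p under 0.05. The nearest tested protein-coding gene, FAM209B, 92.8 kb upstream, had overlapping groups (log2 difference 0.13, SE 0.46, limma adjusted p = 0.983). Downstream no tested protein-coding gene lay within 500 kb. Around TFAP2E, 26 tested genes did not overlap it and none was called (1 at an unadjusted p under 0.05, against 10.2% of all tested genes: AGO4, an Argonaute gene, higher). PSMB2 and, upstream, the neuronal gene NCDN had log2 differences of 0.024 and -0.0086.

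The proteins that act with or against AP-2 were read as a list of 10 genes, all tested. With limma none was called (1 higher and 1 lower at an unadjusted p under 0.05, against 10.2% of all tested genes), and the median log2 difference was -0.032, against 0.0089 over all tested genes. CREBBP, the acetyltransferase coactivator, had the smallest p of the list, with 23967 and 24275 in control and 28917 and 34257 in auxin (log2 difference 0.38, SE 0.11, limma adjusted p = 0.195). Its groups did not overlap. KCTD15, an AP-2 repressor named after its values were seen, had 4547 and 3145 in control and 2866 and 1938 in auxin (-0.68, adjusted p = 0.262). Without auxin replicate 1 both were called, CREBBP at 0.51 (limma adjusted p = 0.0492) and KCTD15 at -0.96 (adjusted p = 0.00697). EP300, the other acetyltransferase, lay at 0.0092, and the coactivator gene CITED2 at 0.33 with overlapping groups.

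Of 14 genes that AP-2 proteins are known to regulate in other cells, all were tested and none was called with limma (5 higher and 1 lower at an unadjusted p under 0.05, against 10.2% of all tested genes in either direction). The median log2 difference was 0.24, against 0.0089 over all tested genes. In 8 of the 14 both auxin libraries were above both control libraries, and in 1 below, against 18.6% and 19.6% of all tested genes. The 8 include the low genes MMP2, ESR1 and IGFBP5 (0.349, 0.912 and 1.74 per kb). The list was chosen with earlier results of these data known, so nothing is read from these counts, and a link to TFAP2A was not tested. CDH1, the epithelial cadherin gene, had the smallest p, with 11060 and 11199 in control and 16109 and 16554 in auxin (0.55, SE 0.11, limma adjusted p = 0.0578). It was called when libraries were scaled by their totals alone (0.59, adjusted p = 0.0394). The others at an unadjusted p under 0.05, named after their values were seen, were the cell cycle inhibitor gene CDKN1A (0.53), the receptor genes RET (0.52) and ERBB2 (0.32), the growth factor gene TGFA (0.48) and, lower, VEGFA (-0.53). Their limma adjusted p ran from 0.102 for CDKN1A to 0.428 for ERBB2. TGFA was called without control replicate 1 (0.68, adjusted p = 0.0368) and VEGFA without auxin replicate 1 (-0.72, adjusted p = 0.048).

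Of 17 transcription factors that work beside AP-2 in trophoblast, neural crest and epidermis, all were tested, and 1 fell and 0 rose, against 0.400% and 0.332% of all tested genes (median log2 difference 0.010, against 0.0089). At an unadjusted p under 0.05 were 1 higher and 2 lower, against 10.2% of all tested genes. The gene that fell was SOX9, a neural crest and intestinal crypt factor, with 4526 and 6526 in control and 1257 and 1507 in auxin. It overlaps a gene of the other strand, AC007461.1, and so shares signal with it. The same limit holds for genes named from the lists above. CREBBP, EP300, CITED2, CDH1, CDKN1A, ERBB2, VEGFA, ESR1, MMP2 and IGFBP5 each overlap a gene of the other strand. The groups of SOX9 stood far apart (log2 difference -1.98, SE 0.19, limma adjusted p = 0.00183). KLF4, a factor of differentiating epithelium, was lower in both auxin libraries (1085 and 918 in control, 570 and 439 in auxin) without passing the threshold (-0.99, adjusted p = 0.0677), and it was called without auxin replicate 1 (-1.18, adjusted p = 0.0107). MSX2, a neural crest factor, had 257 and 194 in control and 452 and 367 in auxin (0.86, adjusted p = 0.173). KLF4 and MSX2 were named after their values were seen.

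**Figure D4:**
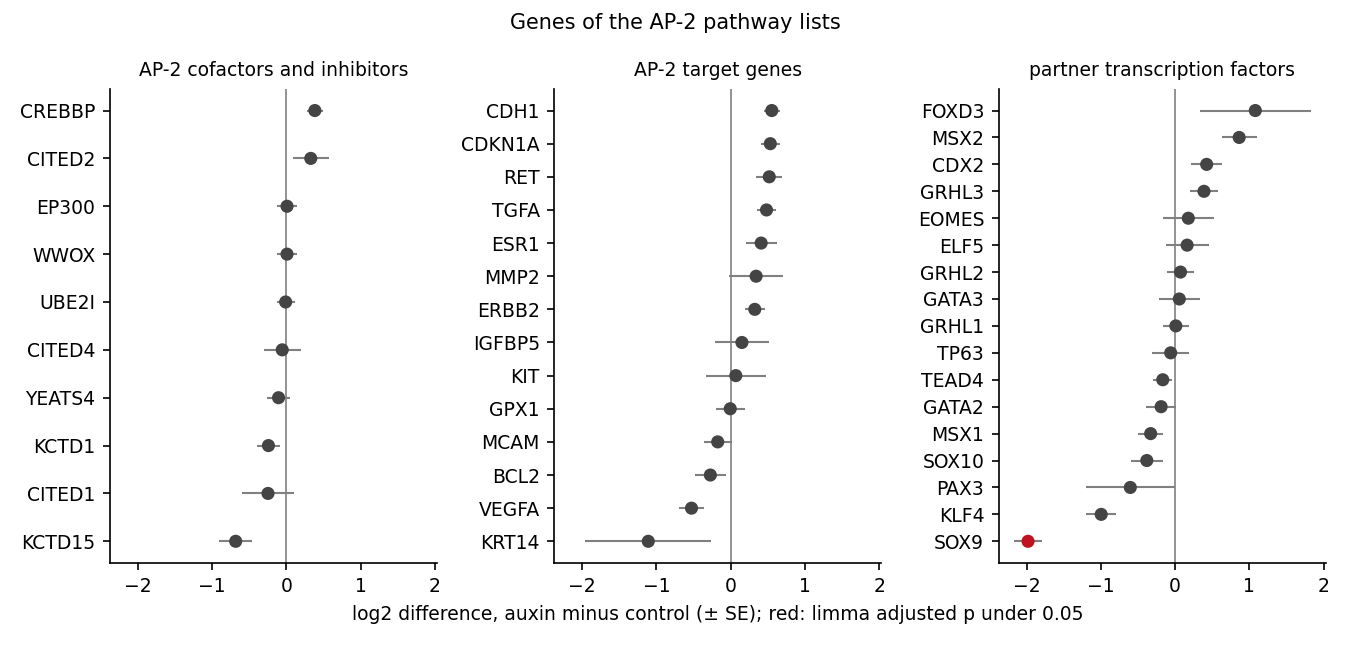
Log2 difference (auxin minus control, ± SE) of the AP-2 cofactors, AP-2 target genes and partner transcription factors, with red points for a limma adjusted p under 0.05. SOX9 at -1.98 is the single red point. Of the 14 target genes 9 lie above 0, where the median of all tested genes is 0.0089. The lists were chosen with earlier results of these data known, so nothing is read from this count.

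The genes whose profile over the 4 libraries was most like that of TFAP2A were found by the Euclidean distance between centred log2 values, among 29155 tested genes with a mean of at least 50 that do not overlap it. They were GDA, a guanine deaminase gene, at a distance of 0.13, NR4A2, an orphan nuclear receptor gene, at 0.14, and C2orf50 at 0.17, where the median gene lay at 1.5. As TFAP2A was chosen by its difference between groups, its nearest genes are bound to be genes with a like difference. Their log2 differences were 1.36, 1.59 and 1.30. Nothing is read from their likeness, and a link between these genes was not tested. NR4A2 had 2474 and 2440 in control and 6920 and 7857 in auxin. For TFAP2C, the nearest of 29157 genes were NUTM2A-AS1 (0.0047), NUDT13 (0.010) and CC2D2A (0.015), with a median of 0.39.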

How the data were processed

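EU-labelled nascent RNA was measured in 4 libraries, grouped by their titles (control 2, auxin 2). Per the labels' protocols a directional kit was used and labelled fly RNA was added. The submitters' processing notes name Trimmomatic 0.39, Bowtie2 2.4.5 and deepTools 3.5.1 and the builds hg38 and dm6, without roles. The authors deposited 1 table of scaled signal per gene span. Each library's values are whole multiples of 1 step (0.727 to 1.36), which was not taken as a read because genes of 10 kb or more held 1 step in only 2 to 8 cases a library, so the depth in reads is unknown. A misspelt control column was read as control replicate 2.

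The filter asked for 10, on the scale of a median library, in 2 or more libraries and a summed value of 15 or more. Scaling used the trimmed mean of M-values (trimming 30% by log ratio and 5% by level), and log2(signal + 1) was fitted with limma 3.58.1 (trend) in R 4.3.3, with Benjamini-Hochberg adjustment and a threshold of 0.05. Differences on this scale understate changes of low genes. The procedure was run on simulated data, drawn independently for each gene and library from a normal distribution on the log2 scale. Such data hold no signal shared between genes, so the run does not show how well the calls hold here. The figures used Python 3.11.15 and matplotlib 3.10.9. Alternatives covered scaling, filter, pseudocount, threshold, the replicate number as a block and leaving out each library. The TFAP2A value without antisense spans was chosen after seeing the data.

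The members and lists were chosen with earlier results of these data known. Named genes were the members; in each list the genes called, or else the gene of smallest p; overlapping and nearest tested protein-coding neighbours of TFAP2A and TFAP2C; and the 3 genes most like each of these.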

Additional observations from a re-analysis of the deposited data

How the results depend on the processing

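Over the 13 settings in which each was fitted, the log2 difference ran from 1.39 to 1.54 for TFAP2A, 1.67 to 1.82 for TFAP2A-AS1, 0.036 to 0.20 for TFAP2C and -0.59 to -0.17 for TFAP2E. TFAP2D, over 12 settings, changed sign (-0.27 to 0.10). Leaving out 1 library gave 1.39 to 1.54 for TFAP2A and 0.036 to 0.20 for TFAP2C. Without the antisense spans TFAP2A was at 1.60. The number of genes called, 289, was 55 on the deposited scale, 82 at an adjusted p under 0.01, and 132 to 681 with 1 library left out. The cause was not tested. A library left alone in its group was assumed to vary like the other group. Leaving out 1 library gave 0 to 2 calls among the cofactors, 0 to 1 among the targets and 1 to 2 among the partner factors, and library size scaling gave 1 among the targets.

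A replicate block brought the count to 4273 called genes, with 2 of the cofactors, 6 of the targets and 6 of the partner factors. The numbers are not said to pair libraries: with 2 pairs, the replicate differences of control and auxin correlated across genes at r = 0.231. With 2 libraries a group and unknown read depth, small differences such as that of TFAP2C cannot be resolved.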
